A study of Mus musculus with 8 samples.

Results

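Myosin light chains and the kinase of skeletal muscle that phosphorylates them are described here in sections of the embryonic mouse diaphragm, the muscle sheet of breathing. The 7 genes were taken by symbol from the 19465 genes probed in every section: the essential light chains *Myl1*, *Myl3*, *Myl4* and *Myl6b*, the regulatory light chains *Mylpf* and *Myl2*, and the kinase *Mylk2*. All 7 passed the filter on low counts in every comparison. Gene expression was read by Visium spatial transcriptomics, in which spots of 55 µm at a spacing of 100 µm hold several cells and parts of fibers. The 8 sections were 3 control sections at E14.5, 2 control sections at E18.5, 1 CaV1.1 KO section (CaV1.1 -/-) at each of these stages and 1 β-cat cKO section (bCat cKO) at E18.5. CaV1.1, encoded by *Cacna1s*, is the calcium channel and voltage sensor that couples excitation to contraction in skeletal muscle, and the KO lacks it in the whole embryo. In the cKO, floxed β-catenin is removed by a Cre driven by the HSA promoter, that of skeletal muscle actin, so that nerve, vessels and tendon keep the gene. A control had at least 1 functional allele of both genes and may thus be heterozygous for either. Some CaV1.1 KO embryos come from crosses that also carry the HSA and floxed β-catenin alleles, and the cKO comes from crosses that also carry the CaV1.1 null allele. Each mutant group is 1 section, without a replicate of its own.

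A sarcomeric myosin consists of a pair of heavy chains, each with a motor head, and the neck of each head binds an essential and a regulatory light chain. The light chains stiffen the neck, and phosphorylation of the regulatory chain by a calmodulin-dependent kinase raises the force at low calcium. Fast fibers use the products of *Myl1* and *Mylpf*, whereas slow fibers use those of *Myl3* and *Myl2*, which are also the light chains of the heart ventricle. *Myl4* encodes the embryonic essential chain, which in the adult remains in the heart atrium, and *Myl6b* encodes an essential chain of slow muscle and nonmuscle cells. *Mylk2* encodes the myosin light chain kinase of skeletal muscle.

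The genes lie on 7 chromosomes and all are protein coding. In the GENCODE annotation of GRCm38 *Myl1* spans chr1:66924295-66945404 on the minus strand, *Myl2* chr5:122100951-122113472, *Myl3* chr9:110741861-110769798, *Myl4* chr11:104550663-104595753, *Myl6b* chr10:128494157-128498685 on the minus strand, *Mylpf* chr7:127208890-127214298 and *Mylk2* chr2:152911352-152923068, the others being on the plus strand. RefSeq promoter windows of GRCm38.p6 matched 6 of the 7 genes. The 250 bases before the RefSeq start are printed for the fast pair *Myl1* and *Mylpf*, whose levels ran closest to each other among the members (Pearson r = 0.994 over 24 sums of 8 sections and 3 regions), and for *Myl3*, the slow essential chain that fell furthest in the cKO. Capitals mark matches to the E-box (CANNTG), the MCAT element (CATTCC, on either strand) and the CArG box, all searched on both strands. Each sequence is written 5′ to 3′ on the strand of its gene.

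Myl1: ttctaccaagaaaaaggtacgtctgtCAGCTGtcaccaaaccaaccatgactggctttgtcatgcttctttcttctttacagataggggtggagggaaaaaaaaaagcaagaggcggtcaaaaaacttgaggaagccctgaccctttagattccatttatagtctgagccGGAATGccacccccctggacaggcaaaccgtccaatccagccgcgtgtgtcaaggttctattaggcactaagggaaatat

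Mylpf: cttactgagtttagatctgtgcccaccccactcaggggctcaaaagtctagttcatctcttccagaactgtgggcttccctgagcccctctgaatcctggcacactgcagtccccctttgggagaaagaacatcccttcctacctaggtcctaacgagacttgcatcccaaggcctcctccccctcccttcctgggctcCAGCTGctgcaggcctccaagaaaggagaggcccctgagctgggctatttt

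Myl3: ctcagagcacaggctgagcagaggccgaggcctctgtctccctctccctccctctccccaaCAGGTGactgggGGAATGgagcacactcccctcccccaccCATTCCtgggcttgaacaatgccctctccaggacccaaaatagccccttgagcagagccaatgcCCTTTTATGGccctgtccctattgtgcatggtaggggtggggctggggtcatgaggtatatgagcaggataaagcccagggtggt

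The windows are chr1:66945057-66945306 (minus strand), chr7:127211358-127211607 and chr9:110763428-110763677 (plus strand). *Myl1* holds an E-box at −224 and an MCAT element at −80, *Mylpf* an E-box at −51, and *Myl3* an E-box at −189, MCAT elements at −177 and −149 and a CArG box at −85, each counted from the start to the first base of the match. The *Myl4* window matched none of these, and no window of the 6 genes matched the MEF2 motif. Of the 32536 promoter windows of all genes, 66.2% hold an E-box, 12.6% an MCAT element, 2.89% a MEF2 motif and 1.48% a CArG box. The RefSeq starts lie 348, 2718 and 21817 bases inside the GENCODE span of *Myl1*, *Mylpf* and *Myl3*, and these are therefore windows of 1 transcript start each.

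The sections hold 14179161 to 82859104 UMIs (distinct molecules counted per gene) over 703 to 3478 spots. Muscle spots were chosen by 7 muscle genes that are no members (*Ttn*, *Neb*, *Des*, *Ryr1*, *Actn2*, *Tnnt3* and *Acta1*), which gave 494 to 3100 spots a section. Levels are CPM (counts scaled to the same total) with TMM normalization over the muscle spots. The hepatocyte list (*Alb*, *Apoa1*, *Ahsg*) ran from 0.522 CPM in E18.5 control 2 to 703 in E14.5 control 2 within muscle spots. *Cacna1s*, which the KO targets, had raw CPM of 19.0, 18.3 and 22.7 in the E14.5 controls and 16.2 in the E14.5 KO, and 61.2 and 63.8 in the E18.5 controls against 31.3 in the E18.5 KO. The difference was called at E18.5 (log2 fold change −1.54, edgeR adjusted p = 0.00116) and not at E14.5 (−0.30, edgeR adjusted p = 0.335), and a transcript read by the probes remained in both KO sections. *Ctnnb1*, the gene of β-catenin, stood at 81.5 raw CPM in the cKO and at 76.0 and 71.6 in the E18.5 controls. With TMM its log2 fold change was −0.07 (edgeR adjusted p = 0.757). In the E18.5 KO, which does not target it, *Ctnnb1* was called lower. Whether the probes lie in the removed part is not given in the sources used here, a spot holds nonmuscle cells that keep *Ctnnb1*, and the fall of *Cacna1s* came in a section where the 7 muscle score genes fell as well (median −1.20), so that these values check no label.

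To learn how the light chains changed with age, the controls of both stages were compared. At E14.5 most essential light chain UMIs came from embryonic *Myl4*, and at E18.5 most came from fast *Myl1*. *Myl4* made up 67.1%, 66.9% and 65.1% of the essential chain UMIs in E14.5 controls 1, 2 and 3 and 15.2% and 12.4% in E18.5 controls 1 and 2. *Myl1* had 31.5%, 31.8% and 33.5% at E14.5 and 83.3% and 85.5% at E18.5. The stages are far apart for both genes. Since each gene has its own probes, a share can be compared between sections but not read as a share of molecules. *Myl2*, the slow chain among the regulatory ones, had 0.421%, 0.488% and 0.438% of their UMIs at E14.5 and 0.963% and 1.29% at E18.5, the rest being *Mylpf*.

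**Figure D1:**
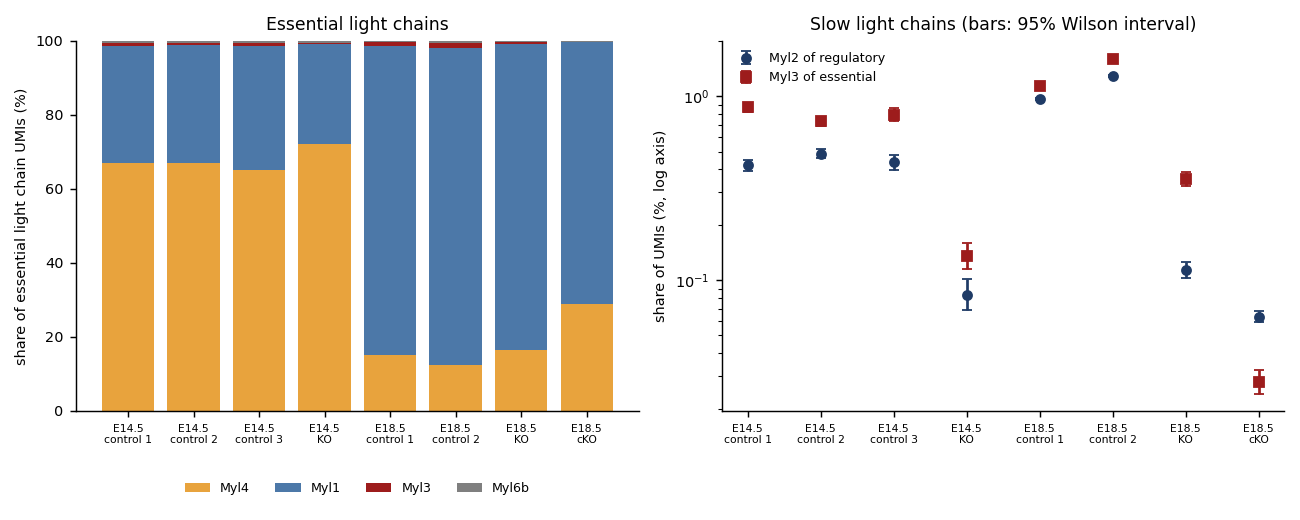
Left, share of the essential light chain UMIs (%) of muscle spots that belongs to each of 4 genes, 1 bar a section. Right, share (%, log axis) of *Myl2* among regulatory and of *Myl3* among essential chain UMIs, with 95% Wilson intervals for counting error. *Myl4* takes 65.1% to 72.2% in the 4 E14.5 sections and 12.4% to 29.0% in the 4 E18.5 sections, and both slow shares are lower in each mutant than in the controls of its stage.

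In levels, 6 of the 7 genes rose between E14.5 and E18.5, where 33.3% of all 14836 genes tested rose and 32.3% fell (edgeR adjusted p under 0.05). *Myl2* stood at 35.2, 30.1 and 27.4 CPM in the E14.5 controls and at 490.0 and 624 in the E18.5 controls, the largest change of the 7 (4.17 on the log2 scale, SE 0.15, edgeR adjusted p = 8.13e-07). *Mylk2* had 45.3, 29.5 and 30.4 CPM at E14.5 and 339.6 and 384 at E18.5 (3.37, SE 0.19). The stages do not overlap for either gene. *Myl1* went from 1823, 1484 and 1577 CPM at E14.5 to 15406 and 15832 at E18.5 (3.26, SE 0.14, edgeR adjusted p = 1.35e-06). *Mylpf*, the fast regulatory chain, went from 8324, 6148 and 6231 CPM to 50391 and 47746 (2.83, SE 0.17). The rises of *Myl3* and *Myl6b* were 2.64 (SE 0.19) and 1.51 (SE 0.13) on the log2 scale, again without overlap of the stages. How many of all genes show no overlap was not counted. *Myl4* was 3878, 3119.5 and 3059.7 CPM at E14.5 and 2819 and 2299 at E18.5, a difference of −0.39 that was not called (SE 0.16, edgeR adjusted p = 0.0594), although it became so where the fit held only the control sections (edgeR adjusted p = 0.0437). Without TMM, *Myl4* had 4440, 3808 and 3793 raw CPM at E14.5 and 2045 and 1684 at E18.5.

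The muscle genes that define muscle spots rose as well, all 7 of them (median 2.42). So did 3 of 3 endothelial genes (median 1.52), 3 of 3 cartilage genes (median 4.46) and 2 of 4 tendon genes (median 0.68), and their part in the light chain differences was not tested. Scaled to their summed UMIs in place of TMM, which moves the median of all genes to −3.34 and the share of called genes that are higher from 50.7% to 1.32%, *Myl2* was the only member that was higher (0.85, edgeR adjusted p = 6.38e-05). In that scaling *Mylk2* and *Myl1* were not called (0.07 and −0.05), whereas *Mylpf*, *Myl3*, *Myl6b* and *Myl4* were lower (−0.47, −0.66, −1.81 and −3.70). In whole spots, a change in the number of muscle cells and a change in RNA per muscle cell cannot be told apart, here and in every comparison that follows. The E14.5 controls 1 and 2 were made with another version of the counting software than the other controls. Against E14.5 control 3 alone, *Myl2* was at 4.35 and *Mylk2* at 3.57.

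Among the partners of the light chains, 5 of the 8 sarcomeric heavy chains measured rose and 2 fell (median 2.58, against −0.01 over all genes tested). *Myh2* and *Myh1*, heavy chains of adult fast fibers, rose by 6.49 and 4.23 and neonatal *Myh8* by 3.65. Of 12 genes for other light chain kinases, calmodulin, myosin phosphatase and kinases that act on it, 7 rose and 1 fell (median 0.66), led by the cardiac kinase *Mylk3* (4.13), the phosphatase subunit *Ppp1r12b* (2.56) and the smooth muscle kinase *Mylk* (1.77). Of 4 other light chain genes measured 3 rose, *Myl10* by 5.00, *Myl9* by 1.51 and *Myl12a* by 0.97 (median 1.24). Of 4 chaperones of myosin and muscle, *Hspb1* and *Smyd1* rose by 2.78 and 0.77 and *Hsp90aa1* fell by 2.06.

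**Figure D2:**
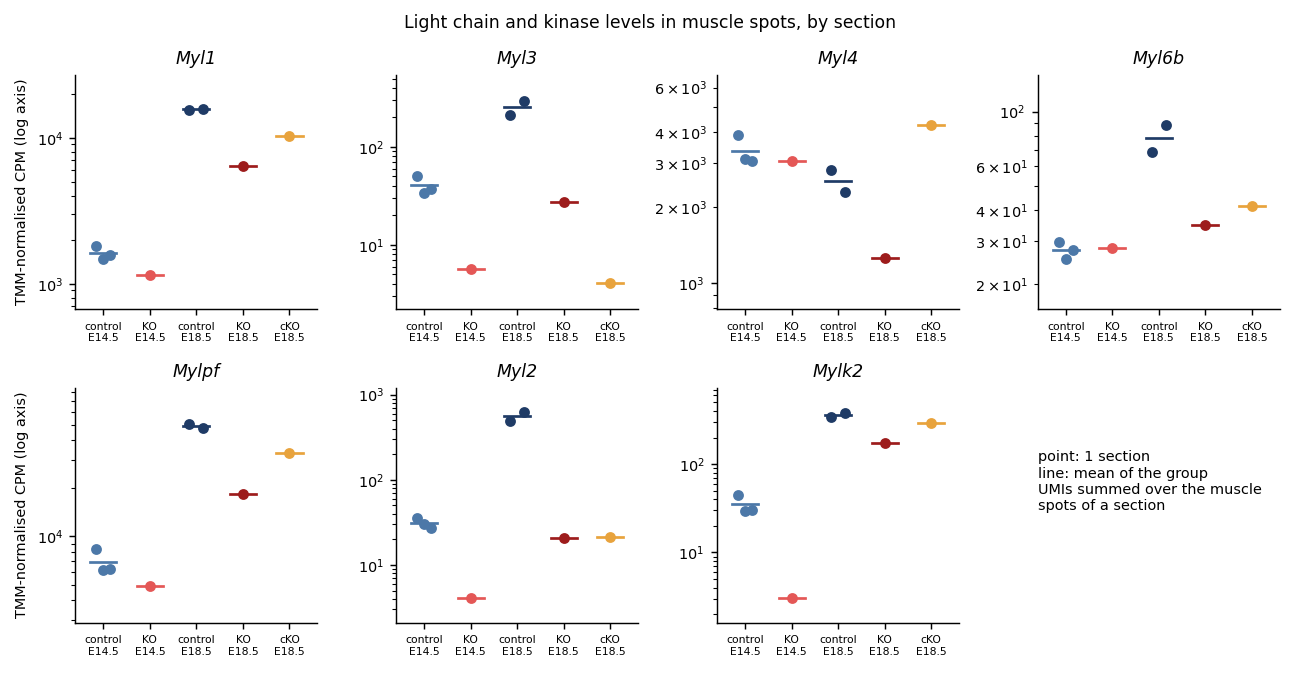
TMM-normalised CPM (log axis) of the 7 genes over the muscle spots of each section, 1 point a section and 1 line at the mean of each group. In the controls 6 of the genes are higher at E18.5, and *Myl2* and *Myl3* of each mutant section lie below the controls of the same stage.

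In the E14.5 KO, the slow chains and the kinase were far lower than in the controls, whereas the other light chains were not called. *Mylk2* had 3.07 CPM in the KO (77 UMIs over 494 muscle spots) against 45.3, 29.5 and 30.4 in the controls. *Myl2* had 4.07 CPM (102 UMIs) against 35.2, 30.1 and 27.4, and *Myl3* had 5.70 (143 UMIs) against 50.3, 34.1 and 37.3. All 3 lie below every control, although how many of all genes do so was not counted. They were the members called (3 of 7 lower, where 1.58% of all genes were lower and 0.566% higher), with log2 fold changes of −3.51 for *Mylk2* (SE 0.33, edgeR adjusted p = 0.00632), −2.93 for *Myl2* (SE 0.24, edgeR adjusted p = 0.00534) and −2.83 for *Myl3* (SE 0.32, edgeR adjusted p = 0.00926). In the KO 13.4% of muscle spots held a *Mylk2* UMI, and 57.9%, 68.0% and 49.1% did so in the controls, while the median depth of a muscle spot was 20586 UMIs in the KO and 18089 to 49923 in the controls. The cardiomyocyte list, of interest since *Myl2* and *Myl3* are also genes of the heart, summed to 60.6 CPM in the KO and 77.9 to 123 in the controls with no gene at 0, and none of its 5 tested genes was called. Of other cells, 1 of 4 smooth muscle, 1 of 3 cartilage and 1 of 4 tendon genes were lower (medians −0.41, −0.34 and −0.40), and their part was not tested.

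*Myl6b* of the E14.5 KO lay inside the control range, at 27.9 CPM against 25.3 to 29.6, and *Myl4* just under it, at 3056 against 3059.7 to 3878. *Myl1* and *Mylpf* lay below their controls at 1145 and 4878 CPM, but their differences (−0.51 and −0.50) were not called (edgeR adjusted p = 0.209 and 0.320). The 7 genes of the muscle score, of which none was called, had a median of −0.59. None of the 8 heavy chains, the 12 kinase and phosphatase genes or the 4 chaperones was called in this comparison, with medians of −0.40, −0.07 and −0.03, and of the other light chains *Myl9* fell by 0.96. *Myh7*, the slow heavy chain, had 10.2% of heavy chain UMIs against 9.52% to 10.97%, while the share of *Myl2* among regulatory chains was 0.0833% against 0.421% to 0.488%. Against the E14.5 controls 1 and 2 alone, which share the software version of the KO, *Mylk2* was at −3.60, *Myl2* at −3.00 and *Myl3* at −2.88, all called (edgeR adjusted p = 0.0302, 0.0299 and 0.0443), with 65 genes called in all in place of 319. Scaled to the muscle genes, which moves the median of all genes to 0.61 and the share of called genes that are higher from 26.3% to 97.6%, the 3 genes were at −2.87, −2.30 and −2.19, and *Myl4* (0.49, edgeR adjusted p = 0.0116) and *Myl6b* (0.64, edgeR adjusted p = 0.0485) were called higher.

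**Figure D3:**
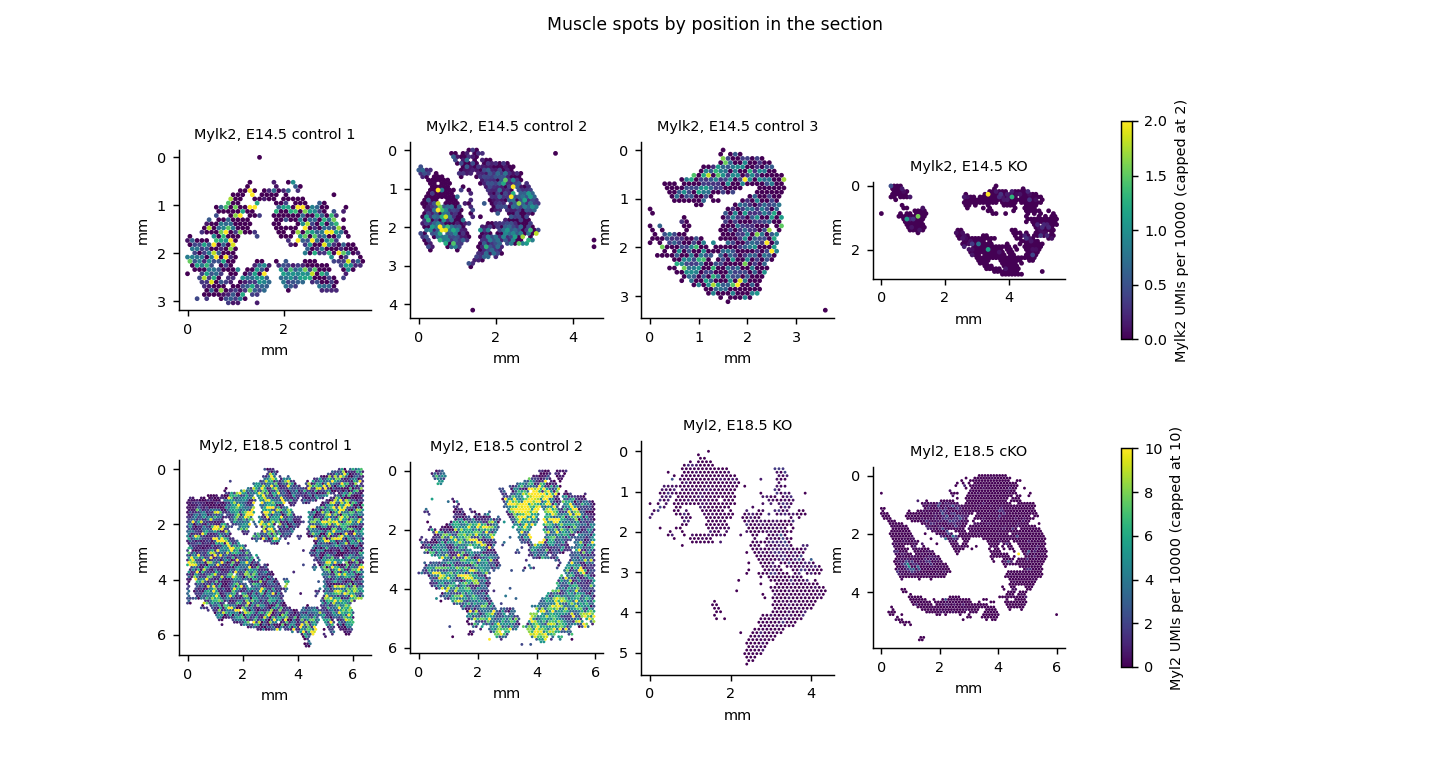
Muscle spots by position in the section (axes in mm), coloured by UMIs per 10000 of a spot, for *Mylk2* in the 4 E14.5 sections (capped at 2) and *Myl2* in the 4 E18.5 sections (capped at 10). *Mylk2* UMIs are found in 49.1% to 68.0% of control spots and 13.4% of KO spots, and *Myl2* in 94.5% and 98.0% of E18.5 control spots, 27.4% of KO spots and 21.8% of cKO spots.

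In the E18.5 KO, all 7 genes were lower than in the 2 controls, where 15.3% of all genes were lower and 10.6% higher. *Myl2* fell the furthest, with 20.9 CPM against 490.0 and 624 (−4.74 on the log2 scale, SE 0.25, edgeR adjusted p = 4.73e-04). *Myl3* had 27.2 CPM against 212 and 296 (−3.22, SE 0.31, edgeR adjusted p = 0.00123). Both stand apart from the other 5 genes, whose changes ran from −1.03 (*Myl4*) to −1.41 (*Mylpf*). *Mylpf* had 18419.6 CPM against 50391 and 47746, *Myl1* 6369 against 15406 and 15832, and *Mylk2* 176 against 339.6 and 384. *Myl6b* had 34.7 CPM against 68.3 and 88.5, and *Myl4* 1256 against 2819 and 2299. No member of the KO overlapped its controls, but how many of all genes lay outside the 2 controls was not counted.

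The genes of the muscle score were lower as well, all 7 of them (median −1.20). Scaled to them, which moves the median of all genes to 1.43 and the share of called genes that are higher from 40.9% to 99.3%, *Myl2* and *Myl3* were lower (−3.30 and −1.79), *Myl4* was higher (0.40, edgeR adjusted p = 0.0243), and *Myl1*, *Myl6b*, *Mylpf* and *Mylk2* were not called (0.13, 0.26, 0.01 and 0.39). The isoform shares do not depend on scaling. *Myl2* had 0.113% of regulatory chain UMIs (95% Wilson interval 0.102% to 0.126%) against 0.963% and 1.29% in the controls, and *Myl3* 0.354% of essential chains against 1.14% and 1.60%. The share of *Myl1* (82.9%) lay below the 83.3% and 85.5% of E18.5 controls 1 and 2, and that of *Myl4* (16.3%) above their 15.2% and 12.4%. Both were closer to control 1.

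The heavy chains did not move together in the E18.5 KO. *Myh7* fell by 2.08, embryonic *Myh3* by 1.87 and *Myh8* by 1.18, whereas *Myh4*, the heavy chain of the fastest fibers, rose by 2.09, and the list of 8 had a median of −0.10. Of the 12 kinase and phosphatase genes *Ppp1cb*, *Calm2* and *Ppp1r12b* fell by 0.99, 0.98 and 0.93 among 4 lower ones, and 1 rose (median −0.30). The other light chains called were *Myl9* (−2.28) and *Myl12a* (−1.28), and of the chaperones *Hspb1* and *Smyd1* (−2.34 and −0.79). Lists of other cells differed in this section too. All 3 Schwann cell genes were higher, and 3 of 3 endothelial, 3 of 4 smooth muscle, 3 of 4 tendon and 2 of 3 cartilage genes were lower, and their part in the light chain differences was not tested. The cardiomyocyte list summed to 23.1 CPM in the KO and 13.2 to 16.4 in the controls.

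The effect of the KO was also compared between the stages, in a contrast added after the data had been seen. It differed for 3 of the 7 genes. *Mylk2* was lowered more at E14.5 than at E18.5, with −3.51 against −1.04 (difference 2.47, SE 0.39, edgeR adjusted p = 0.0249, where 2.26% of all genes differed in this direction and 4.33% in the other). *Myl2* and *Myl6b* were lowered more at E18.5, with differences of −1.81 (SE 0.30, edgeR adjusted p = 0.0253) and −1.20 (SE 0.24, edgeR adjusted p = 0.0351). These calls rest on single controls. Without E14.5 control 3 none of the 7 genes was called by edgeR (*Mylk2* 2.56, edgeR adjusted p = 0.0757), although 5 had an unadjusted p under 0.05, and without E14.5 control 2 *Mylk2* alone was (2.59, edgeR adjusted p = 0.0465), while without E14.5 control 1 there were 6. Scaled to the muscle genes, *Mylk2* was at 3.26 (edgeR adjusted p = 1.07e-11) and *Myl2* and *Myl6b* were not called (edgeR adjusted p = 0.0629 and 0.458).

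In the β-cat cKO at E18.5, the slow chains were far lower than in the controls, while the fast chains and the kinase were not called. *Myl3* had 4.08 CPM (167 UMIs over 1574 muscle spots) against 212 and 296 in the controls (−5.96 on the log2 scale, SE 0.36, edgeR adjusted p = 4.70e-04). *Myl2* had 21.1 CPM against 490.0 and 624 (−4.72, SE 0.24, edgeR adjusted p = 2.16e-04). *Myl6b* had 41.5 against 68.3 and 88.5 (−0.92, SE 0.18, edgeR adjusted p = 0.0219). These were the 3 members called lower, where 5.72% of all genes were lower and 3.17% higher. *Mylk2*, at 296 CPM against 339.6 and 384, had a difference of −0.29 (SE 0.25, edgeR adjusted p = 0.510). *Myl1*, at 10334 CPM, and *Mylpf*, at 33426, were also below both controls but not called (−0.60 and −0.55, edgeR adjusted p = 0.0916 and 0.189). *Myl4* was the 1 gene above its controls, at 4239 CPM against 2819 and 2299 (0.73, SE 0.20, edgeR adjusted p = 0.0688).

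The essential chain UMIs of the cKO had 29.0% *Myl4* and 70.7% *Myl1*, against 15.2% and 12.4% *Myl4* in the controls. With DESeq2 and where only the groups compared were fitted, 6 of the 7 genes were called, *Mylk2* being the exception. Of all genes, 1587 of 14836 were called with DESeq2 and 1052 of 15082 in the smaller fit. In both, *Myl4* was higher (DESeq2 adjusted p = 0.00117, edgeR adjusted p = 0.0288 in the smaller fit). Scaled to the muscle genes, which moves the median of all genes to 0.49 and the share of called genes that are higher from 35.7% to 92.3%, *Myl3* and *Myl2* were at −5.45 and −4.22, *Myl4* was higher (1.22) and *Myl6b* was not called (−0.41, edgeR adjusted p = 0.293). Among the heavy chains *Myh7* fell by 3.62, the slow and cardiac *Myh7b* by 2.73 and *Myh2* by 2.19, 4 of 8 in all (median −1.67). *Mylk3*, *Rock2* and *Mylk4* fell by 2.67, 1.02 and 1.01 among the 12 kinase and phosphatase genes (median −0.10), and *Myl10* by 2.63 among the other light chains. None of the 7 muscle score genes and none of the 4 chaperones was called (medians −0.54 and 0.16). The hepatocyte list summed to 4.10 CPM in muscle spots of the cKO and to 436 and 0.522 in the controls, 1 of 4 smooth muscle genes was higher (median 0.91) and 1 of 3 cartilage genes lower (median −4.01), and their part was not tested. The cKO and the E18.5 KO were read against the same 2 controls. Side by side, *Myl2* had 21.1 CPM in the cKO and 20.9 in the KO, *Myl3* 4.08 and 27.2, and *Myl4* 4239 and 1256.

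To find out whether the light chains vary along the fibers, muscle spots were split into a center, where 8 endplate genes such as *Chrna1* are highest, a periphery, where 4 genes of the myotendinous junction such as *Col22a1* are highest, and the muscle between. No member helped to define a region. At E14.5 *Mylk2* formed a gradient. From center to intermediate to periphery it was 70.8, 43.2 and 19.5 CPM in control 1, 52.3, 27.7 and 14.49 in control 2 and 42.2, 30.4 and 20.1 in control 3. Center spots were above periphery spots in 3 of 3 sections (1.68 on the log2 scale, SE 0.12, edgeR adjusted p = 2.84e-12). *Myl1* was the other member called, at 2103, 1897 and 1822 CPM in the center against 1661, 1513 and 1479 in the periphery (0.32, SE 0.05), where 11.7% of all genes were higher in the center and 8.51% lower. The other 5 genes had differences from −0.32 (*Myl2*) to 0.12 (*Myl3*), with edgeR adjusted p of 0.117 and above. Of the 7 muscle score genes 5 were higher in the center (median 0.31), all 4 tendon genes were lower (median −1.22), and their part in these differences was not tested.

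**Figure D4:**
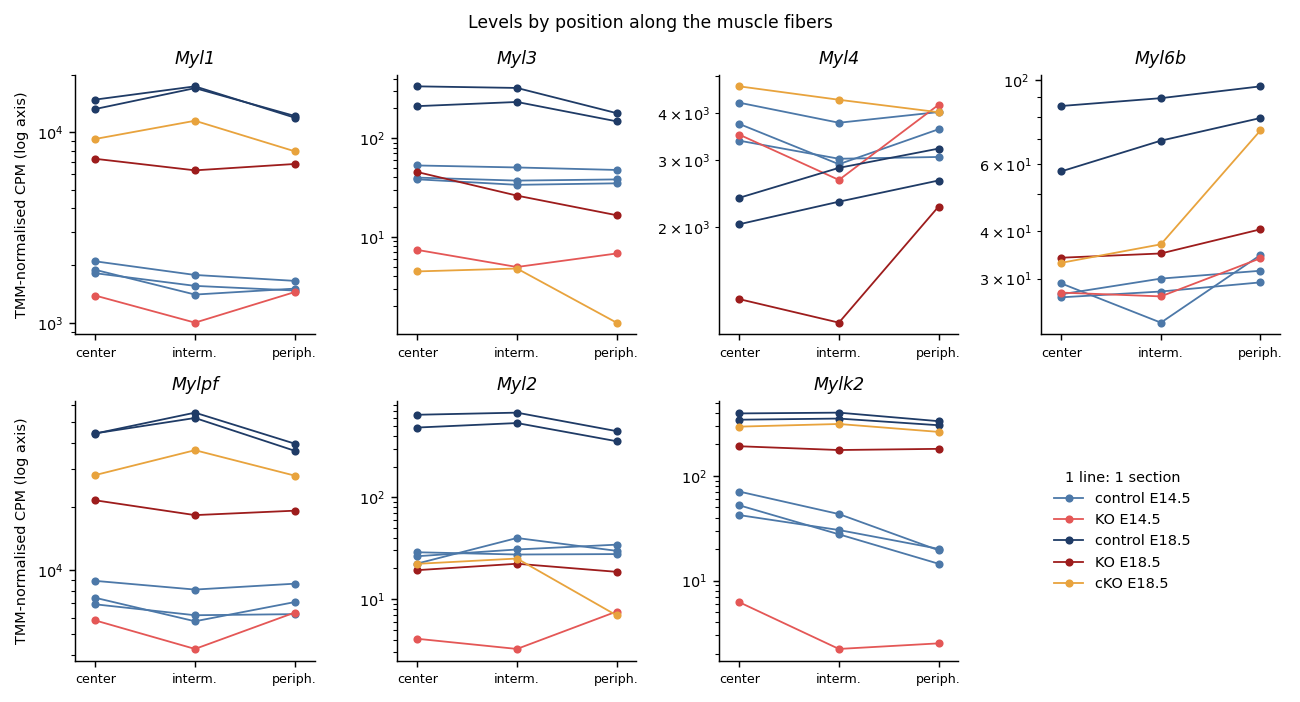
TMM-normalised CPM (log axis) of each gene in center, intermediate and periphery of the muscle, 1 line a section. *Mylk2* is highest in the center and lowest in the periphery of the 3 E14.5 controls (for example 70.8 and 19.5) and nearly level at E18.5. *Myl6b* is highest in the periphery of every section, by the widest margin in the cKO (73.6 against 36.9 in intermediate spots). Its differences tested in the controls were not called.

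Where regions were set by distance from the edge of the muscle and not by genes, *Mylk2* was again higher in the E14.5 center (1.16, edgeR adjusted p = 6.68e-07). It had 31.5, 24.3 and 22.0 raw CPM in muscle spots within 100 µm of the edge and 74.2, 43.7 and 43.1 in those at 200 to 300 µm. In that split *Myl1*, *Myl3*, *Myl4* and *Mylpf* were higher in the center as well (0.60, 0.50, 0.37 and 0.33).

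At E18.5 the gradient of *Mylk2* was smaller. Center spots of controls 1 and 2 had 344 and 395 CPM of it and periphery spots 305 and 333, and the difference of center and periphery differed from that at E14.5 by −1.47 on the log2 scale (SE 0.13, edgeR adjusted p = 3.24e-09). The same test called *Myl4* in this direction (−0.50, edgeR adjusted p = 2.81e-05) and *Myl2* and *Myl3* in the other (0.81 and 0.59, edgeR adjusted p = 5.07e-04 and 0.00192), where 3.48% of all genes were called higher and 4.31% lower. By distance from the edge *Mylk2* was at −0.48 (edgeR adjusted p = 0.0289), *Myl4* was not called (−0.08) and *Mylpf* was (0.60, edgeR adjusted p = 0.00383). Without E18.5 control 2 the value of *Myl3* was 0.39 (edgeR adjusted p = 0.0545).

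Within E18.5 muscle, the fiber ends had less of the slow and fast chains and slightly more *Myl4*. Against intermediate spots, *Myl3* was lower in the periphery in 2 of 2 controls, with 148 against 232 CPM and 179 against 321 (−0.75 on the log2 scale, SE 0.06, edgeR adjusted p = 6.48e-12). *Myl2* (−0.60), *Myl1* (−0.51), *Mylpf* (−0.50) and *Mylk2* (−0.24) were lower too, which makes 5 of 7 where 20.0% of all genes were lower. *Myl4*, at 3219 against 2864 and 2653 against 2333 CPM, was the member that was higher (0.18, SE 0.06, edgeR adjusted p = 0.0175), where 11.6% of all genes were. Without E18.5 control 1 or 2 *Myl4* was not called (0.19 and 0.17, edgeR adjusted p = 0.129 and 0.205), and by distance from the edge it was at −0.22 and not called. In that split the 5 genes were lower by 0.57 to 1.20. All 4 tendon genes were higher in the periphery (median 1.51) and 6 of 7 muscle score genes lower (median −0.37), and their part was not tested. In the center, at the endplate band, *Myl1* (−0.30), *Mylpf* (−0.28) and *Myl4* (−0.23) were lower than in intermediate spots, where 7.65% of all genes were lower and 4.09% higher. All 3 were lower in 2 of 2 controls, with *Myl1* at 13223 against 17009.9 and 14812 against 17379 CPM. Without E18.5 control 1 none was called (*Myl1* −0.23, edgeR adjusted p = 0.203), and by distance their differences were above 0 and not called (0.13, 0.09 and 0.06). All 3 Schwann cell genes were higher in the center spots (median 1.58), 5 of 7 muscle score genes (median −0.24) and all 5 fast genes of the fiber score (median −0.46) were lower, and their part was not tested.

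Position within the mutant sections was not tested, and their ratios of raw CPM carry 95% counting intervals, which cover counting error only. *Mylk2* of the E14.5 KO kept a center above the periphery, with a ratio of 2.36 (interval 1.13 to 5.39, 32 and 10 UMIs), against 3.41, 3.45 and 2.02 in the controls. In the E18.5 KO the ratio was 1.04 (0.907 to 1.20). *Myl4* had 1.98 times as much in the periphery of the E18.5 KO, as set by genes, as in intermediate spots (1.91 to 2.04). By distance from the muscle edge the order was the other way. *Myl4* had 1183 raw CPM in muscle spots of this section within 100 µm of the edge and 2168 in those beyond 500 µm. *Myl6b* was highest in the periphery, as set by genes, in every section, mutant or control. In the controls this was not called. Periphery minus intermediate was 0.15 at E18.5 (edgeR adjusted p = 0.0937), and center minus periphery was −0.22 at E14.5 (edgeR adjusted p = 0.257). By distance from the edge both changed sign (−0.48 and 0.19). The cKO had 2.197 times as much of it in the periphery as in intermediate spots (1.97 to 2.45), against 1.32 and 1.26 in the controls. *Myl2* and *Myl3* of the cKO were lowest there, at 0.305 (0.221 to 0.412) and 0.312 (0.140 to 0.611) of the intermediate level, against 0.764 and 0.770 for *Myl2* in the controls.

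Next, it was asked which light chains go with slow and which with fast fibers at E18.5. Slow-rich spots were the 25% of muscle spots highest for *Myh7* and 3 other slow genes relative to *Myh4* and 4 other fast genes, and fast-rich spots the lowest 25%, again without any member. All 7 genes differed. *Myl2* had 607 and 693 CPM in slow-rich and 186 and 286 in fast-rich spots of controls 1 and 2 (1.49 on the log2 scale, SE 0.07, edgeR adjusted p = 3.17e-09). *Myl3* had 241 and 301 against 88.6 and 140 (1.27, SE 0.06), and *Myl6b* 80.0 and 101 against 31.5 and 45.9 (1.23, SE 0.06). The difference of *Myl6b* was thus close in size to that of *Myl3*. *Myl4* was higher in slow-rich spots by 0.35 (SE 0.05), at 2822 and 2081 against 1985 and 1821 CPM, which makes 4 of 7 higher where 8.82% of all genes were. *Myl1* (−0.49, SE 0.03), *Mylpf* (−0.45, SE 0.03) and *Mylk2* (−0.31, SE 0.04) were lower, where 12.3% of all genes were. *Mylk2* had 257 and 288 CPM in slow-rich and 313 and 363 in fast-rich spots. Slow-rich spots also had more of all 4 tendon genes (median 0.97), all 3 cartilage genes and all 3 hepatocyte genes, and less of 5 of the 7 muscle score genes (median −0.32), and their part was not tested. Of the partners, 6 of the 12 kinase and phosphatase genes were lower in slow-rich spots, with *Mylk*, *Mylk4* and *Mylk3* at −0.61, −0.42 and −0.32.

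**Figure D5:**
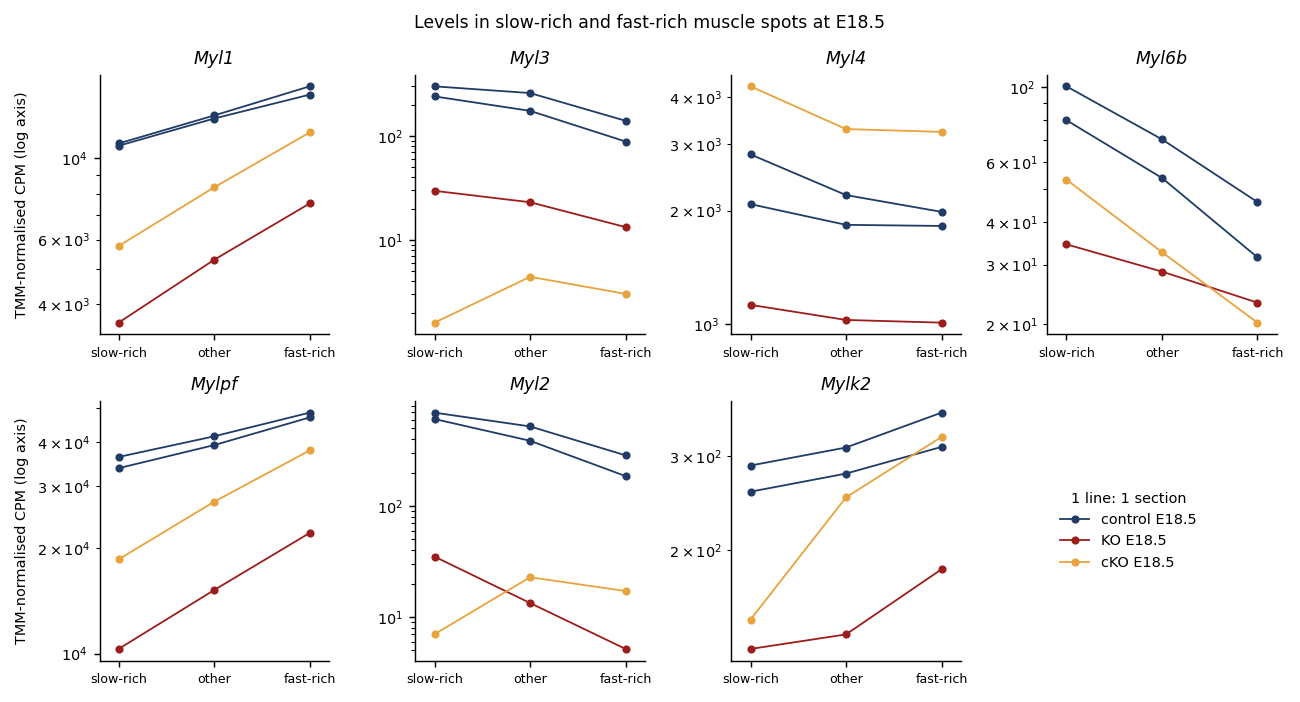
TMM-normalised CPM (log axis) in slow-rich, other and fast-rich muscle spots of the E18.5 sections, 1 line a section. In both controls *Myl2*, *Myl3* and *Myl6b* are lower and *Myl1*, *Mylpf* and *Mylk2* higher toward fast-rich spots, while *Myl2* of the cKO is lowest in slow-rich spots. Spots are ranked within each section.

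In the E18.5 KO most of the little *Myl2* that remained was in slow-rich spots, with 200 UMIs there and 24 in fast-rich spots (ratio 8.09, counting interval 5.28 to 12.9), against ratios of 3.60 and 2.76 in the controls. *Myl3* of this section had a ratio of 2.66 (1.98 to 3.62). In the cKO the ratio was below 1, as *Myl2* had 83 UMIs in slow-rich and 215 in fast-rich spots (0.510, 0.391 to 0.660). *Myl3*, *Myl1*, *Mylpf* and *Mylk2* were lower in its slow-rich spots too, and *Myl4* and *Myl6b* higher. The classes are fixed shares of spots ranked within each section. Since *Myh7* had 0.676% of heavy chain UMIs in the cKO, against 5.24% and 7.07% in the controls, its slow-rich spots need not hold many slow fibers. Spots of neither kind had the most *Myl2* there, at 22.8 CPM against 6.99 in slow-rich and 17.1 in fast-rich spots. *Myl6b* of the same section had a ratio of 3.30 (2.85 to 3.83), above the 2.80 and 2.495 of the controls. These are ratios of single sections and were not tested against the controls.

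The same pairs were seen from spot to spot. These correlations are over spots of 1 section, which share a library, and are given without p. In the E18.5 controls (3100 and 2208 muscle spots) *Myl2* followed *Myh7* at r = 0.79 and 0.82, *Myl3* followed *Myh7* at 0.68 and 0.70, and *Myl2* and *Myl3* followed each other at 0.67 and 0.70. *Myl1* followed *Mylpf* at 0.81 and 0.90. *Myl4* had r of 0.48 and 0.43 with embryonic *Myh3* and −0.10 and 0.05 with *Mylpf*, whereas in the 3 E14.5 controls it followed *Mylpf* at 0.71 to 0.86. In the E18.5 KO *Myl2* and *Myh7* had r = 0.33 over 820 spots and in the cKO 0.48 over 1574 spots, where counts of *Myl2* are sparse. *Myl4* and *Myh3* had 0.65 in the KO and 0.61 in the cKO.

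Finally, the genes most like each member were listed over the 24 sums of 8 sections and 3 regions, among 5889 genes whose log2 CPM averaged 5 or more. The sums share sections and age, so that the values are a description. *Myl1* was closest to the fast troponins *Tnnc2* and *Tnnt3* (r of 0.998 and 0.997) and *Hspb6* (0.997), and *Mylpf* to skeletal actin *Acta1* (0.996), *Tpm1* (0.994) and *Tnnc2* (0.994), of which *Tnnt3* and *Acta1* also chose the muscle spots. *Mylk2* was closest to enzymes of muscle energy use, *Ampd1* and *Ckm* (0.986 each), and to *Mlip* (0.983). *Myl3* was closest to *Myh7* (0.912), followed by *Fgfrl1* (0.864) and *Tm7sf2* (0.826). *Myl2* was closest to *Cul4a* (0.908), *Fhl1* (0.887) and *Eepd1* (0.878), and *Myl6b* to *Synpo*, *Ppme1* and *Homer2* (0.928, 0.928 and 0.922). *Myl4* was closest to *Pakap*, *Bex1* and *Tuba1a* (0.943, 0.912 and 0.896) and had a negative r with every other member, from −0.372 to −0.215. Between the slow chains *Myl2* and *Myl3* r was 0.882.

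The deposited Moran's I scores, which measure how strongly a gene is patterned over a section, ranked *Mylpf* between 1 and 56 among 16636 to 17937 genes (I of 0.493 to 0.750). *Myl1* ranked between 8 and 146 and *Myl4* between 19 and 164 over the 8 sections. The ranks of the slow chains and the kinase spread far more. *Myl2* ranked between 161 and 7376, *Mylk2* between 232 and 10834 and *Myl3* between 299 and 6071, and the lowest places were those of the E14.5 KO for *Myl2* and *Mylk2* and of the cKO for *Myl3*. These genes had few UMIs in those sections, and the part of sparse counts in the ranks was not tested. *Myl6b* ranked between 1106 and 4657.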

How the data were processed

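Embryonic diaphragms were read by probe-based Visium on paraffin sections of 5 µm. The authors made the deposited UMI counts per spot and gene with Space Ranger (2.0.0 for E14.5 controls 1 and 2 and the E14.5 KO and 2.0.1 for the others, per the file headers) against mm10 probes, and deposited Moran's I scores per gene. The members and gene lists were chosen with earlier results of these data known. Spots with at least 1000 UMIs were kept. Muscle spots were set by Otsu's threshold on 7 muscle genes, and regions were the top 15% of muscle spots of each score. UMIs were summed per section or per section and region, since the section is the replicate and spots are not.

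The sums were tested with edgeR 4.0.16 (quasi-likelihood, TMM, Benjamini-Hochberg over all genes, threshold 0.05) in R 4.3.3, with all groups in 1 fit so that each single mutant section is assumed to vary like the controls (3 residual degrees of freedom). Nothing names the litters, so that p-values of the muscle sums, with these 3 degrees of freedom, measure the spread between sections. Region and fiber class fits had the section as a block, with 6 and 2 residual degrees of freedom. The fiber class fit held only the 12 sums of the E18.5 sections. The p-values of both measure how differences between regions or classes vary from section to section. The sums of 1 section share its tissue, and their deviations from the group means correlated at r = 0.087 to 0.765. Replicate sections differed beyond sampling noise (chi-square per degree of freedom 8.20 to 48.6), and barcodes shared between sections are positions of the slide. Genes that define a region or fiber class were tested with the others and left out of the counts of called genes. Total UMIs were 14179161 to 82859104 a section, and intervals are 95% Wilson or exact binomial for counting error. DESeq2 1.42.0, other filters, scalings and region settings, and leaving out each control, were tried. Named genes were the members, the targeted genes, the 3 most similar genes of each member, and at most 3 called genes with the largest change of each list per comparison, beside genes that define a region. On simulated counts for 12204 genes the E18.5 KO test recovered 90% of changes of 1 and 100% of changes of 2 on the log2 scale, the stage test 100% of both, the center against periphery test at E14.5 80% and 100%, and the center against intermediate test at E18.5 24% and 95%. Between 6 and 12 unchanged genes were called. The simulation had a fixed dispersion and no section effect, so that its rates need not hold for these sections. The authors' study tested over spots, which is not done here. A further planned split of the muscle is not reported here.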

Additional observations from a re-analysis of the deposited data

Results flagged for a closer look

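The effect of the CaV1.1 KO differed between E14.5 and E18.5 for 3 members, by a test of the difference itself (E18.5 minus E14.5, edgeR adjusted p under 0.05): *Mylk2* at 2.47, *Myl2* at −1.81 and *Myl6b* at −1.20 on the log2 scale. Each stage has 1 KO section, and without E14.5 control 3 none of these was called (edgeR adjusted p = 0.0757 for *Mylk2*, 0.0781 for *Myl2* and 0.0973 for *Myl6b*).

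The difference between center and periphery differed between the stages in the controls for 4 members by the same kind of test: *Mylk2* at −1.47, *Myl4* at −0.50, *Myl2* at 0.81 and *Myl3* at 0.59. *Mylk2*, *Myl2* and *Myl3* were called in the same direction where regions were set by distance from the muscle edge (−0.48, 0.99 and 0.71), and *Myl4* was not (−0.08).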

How the results depend on the processing

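Of 819 values of members under alternatives, 703 kept their direction and, where a test was possible, their side of the threshold, 45 lost the call, 33 gained one and 38 changed sign. The stage comparison called 9730 genes and 6 members, and 7347 to 14283 genes and 5 to 7 members under alternatives. In the order E14.5 KO, E18.5 KO, cKO and stage difference of the KO, TMM gave 319, 3851, 1318 and 977 genes and 3, 7, 3 and 3 members.

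Scaling to the muscle genes gave 6098, 12526, 2932 and 3862 genes and 5, 3, 3 and 1 members, and changed the sign of *Myl1* (−0.0518), *Myl3* (−0.66), *Myl6b* (−1.81) and *Mylpf* (−0.47) by stage, *Myl1* (0.11), *Myl4* (0.49) and *Mylpf* (0.13) in the E14.5 KO, *Myl1* (0.13), *Myl4* (0.40), *Myl6b* (0.26), *Mylpf* (0.0131) and *Mylk2* (0.39) in the E18.5 KO, *Mylk2* (0.21) in the cKO, and *Myl1* (0.0197) and *Myl3* (0.41) in the stage difference. DESeq2 gave 738 genes and 5 members in the E14.5 KO, 6 members in the cKO, and 1594 genes and 6 members in the stage difference. No filter on low counts gave 545 genes in the E14.5 KO. The cKO had 5 members over all spots and 6 where only the groups compared were fitted. *Myl6b* of the E14.5 KO was at −0.32 over all spots and between −0.0344 (without E14.5 control 2) and 0.0829 when a control was left out. Leaving out each control gave 65 to 270 genes in the E14.5 KO, 3108 to 3576 in the E18.5 KO, 842 to 1281 in the cKO, and 0 to 1144 genes and 0 to 6 members in the stage difference, where the 0 is without E14.5 control 3 (3237 genes at an unadjusted p under 0.05).

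The replicate numbers are shared by number alone (r between −0.33 and 0.33). With a replicate block, 0 genes and 0 members were called in the E14.5 KO and the stage difference (*Mylk2* −3.69 and 2.53, edgeR adjusted p = 0.0904 and 0.0903), with 2015 and 3596 genes and 3 and 4 members at an unadjusted p under 0.05, 2642 genes and 6 members in the E18.5 KO, 16 genes and 1 member (*Myl2* −4.68) in the cKO, and 8928 genes and 7 members by stage.

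In the order center against periphery at E14.5, center and periphery against intermediate at E18.5, and stage difference, 2857, 1662, 4477 and 1103 genes and 2, 3, 6 and 4 members were called. DESeq2 gave 1825, 427, 1970 and 508 genes. By distance there were 1675 genes and 5 members, 20 and 0 in the center at E18.5, and 1838 genes in the stage difference. Without the section block there were 1203, 131, 1055 and 110 genes, with 0, 1 and 1 members in the last 3. A region share of 25% gave 4 members at E14.5, and no filter 5 in the E18.5 center. Leaving out each control gave 1580 to 2843, 490 to 895, 2554 to 3058 and 628 to 1227 genes, and 2 to 3, 0 to 2, 5 and 3 to 4 members. Signs changed by distance for *Myl2* (0.22) and *Myl6b* (0.19) at E14.5, for *Myl1* (0.13), *Myl2* (0.00883), *Myl3* (0.0327), *Myl4* (0.0638), *Mylpf* (0.0905) and *Mylk2* (0.11) in the E18.5 center, for *Myl4* (−0.22) and *Myl6b* (−0.48) in the periphery, and for *Myl1* (0.39) and *Myl6b* (0.14) in the stage difference. With a region share of 10% they changed for *Myl3* (0.0558) and *Mylk2* (0.0836) in the E18.5 center and *Myl1* (0.0263) and *Myl6b* (0.0509) in the stage difference, with 25% for *Mylpf* (−0.0453) there, where only the groups compared were fitted for *Myl3* (0.00325) and *Mylk2* (0.0104) in the center, and without E18.5 control 1 for *Myl3* in the center (−0.140 to 0.0581 over the controls left out) and *Myl6b* in the stage difference (−0.246 to 0.0493).

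Slow-rich against fast-rich called 3027 genes and 7 members, with 600 genes by DESeq2 and 56 genes and 2 members without the section block. Leaving out a control left no residual degrees of freedom there and gave values without a test. The cause of these changes was not tested. Depth limits the low genes of the mutants: *Mylk2*, *Myl2* and *Myl3* of the E14.5 KO rest on 77, 102 and 143 UMIs and *Myl3* of the cKO on 167.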
